A study of Mus musculus with 4 samples.

Results

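Genes of lipid droplets and lipid synthesis were followed through every kidney cell cluster of 4 mice, 24 hours after injury with aristolochic acid I or without it. The set holds 9 genes, *Plin2*, *Dgat1*, *Dgat2*, *Pnpla2*, *Sptlc2*, *Chka*, *Lpin1*, *Lpin2* and *Angptl4*, of which 8 have a row among the 19609 gene rows analysed. *Lpin2* was not analysed here. The set was chosen from measured values, since *Plin2*, *Sptlc2* and *Chka* were already known to be higher with injury in the cluster called InjuredPT-B. The height of these 3 genes there is therefore given as a description. The rule of choice did not name the other genes, clusters and comparisons. All members and the related lists were still chosen with earlier results of these data known, so their values are descriptions too.

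Aristolochic acid I (AAI) is a plant toxin that proximal tubule cells take up and that forms DNA adducts in them. Single nucleus RNA sequencing was performed on kidney cortex of 4 male mice of mixed strain, with 1 mouse in each group. The control mice, with and without AAI, carried the TRE-hKLF6 transgene alone, which is silent without an activator. The hKLF6OE mice, with and without AAI, carried CAG-rtTA,TRE-hKLF6, in which a broadly active promoter drives the activator, so that human *KLF6* is switched on throughout the body rather than in the tubule alone. All mice, controls included, were fed doxycycline for 1 week. AAI was given once into the peritoneum, at 2 mg/kg in DMSO. The labels give the uninjured mice no treatment, and the age of the mice was not given in the sources used here. Because each group is 1 mouse, no test between groups was made and no value below carries a replicate error.

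Kidney tubule cells burn fatty acids for most of their energy and store what they do not burn as triglyceride in lipid droplets. *Dgat1* and *Dgat2* encode the enzymes of the last step of triglyceride synthesis, *Lpin1* encodes a phosphatidate phosphatase that supplies their substrate, *Plin2* encodes the coat protein of droplets in most tissues, and *Pnpla2* encodes the lipase that opens triglyceride breakdown. *Sptlc2* encodes a subunit of serine palmitoyltransferase, which begins sphingolipid and ceramide synthesis. *Chka* encodes choline kinase alpha, which begins the synthesis of phosphatidylcholine from choline. *Angptl4* encodes a secreted inhibitor of lipoprotein lipase. Lipid droplets and ceramides are known to build up in injured tubules.

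Each value averages the normalised expression of a gene across the nuclei that 1 mouse had in 1 cluster, scaled so that each of the 92 columns (23 clusters in 4 mice) sums to 10000. The numbers of nuclei and of reads behind each column were not used here, so the depth of a column is unknown. The study found both injured clusters almost only in mice given AAI, so their uninjured columns rest on few nuclei. A rough guide is the share of genes listed at 0, which was 15.1 to 31.3% in the 5 normal proximal tubule (PT) clusters, 27% and 29.7% in InjuredPT-B of the AAI mice, and 51.3% and 55.7% in InjuredPT-B of the uninjured mice. In InjuredPT-A it was 22.5% and 22.2% with AAI against 62.6% and 40.8% without, and in the small Macrophage, LH-DL and LH-AL-3 clusters it reached 63.4%. Values from the uninjured columns of both injured clusters and from those small clusters are therefore the coarsest. The labels of the injured clusters matched most of their markers: by the mean of the 4 mice *Cxcl1*, *Il34*, *Havcr1* and *Krt20* were highest in InjuredPT-B, and *Polr2a* and mouse *Klf6* in InjuredPT-A. The exception was *Cxcl1* in the control mouse with AAI, which was higher in InjuredPT-A (4.8) than in InjuredPT-B (3.75). The labels held less well for 3 others, since *Itga8*, a mesangial marker, was higher in Macrophage (mean 1.19) than in the mesangial cluster MC (0.995), the 3 endothelial markers were second highest in Macrophage and not in EC-1, and the podocyte marker *Nphs1* was second highest in LH-DL (1.61). Human *KLF6* has no row of its own. Mouse *Klf6* in normal PT was 0.215 in the control mouse, 0.406 in the control mouse with AAI, 0.137 in the hKLF6OE mouse and 0.327 in the hKLF6OE mouse with AAI.

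In the genome (GRCm38, the build of mm10) the set is spread over 6 chromosomes. *Plin2* (ENSMUSG00000028494) lies at chr4:86648386-86670060 on the minus strand, *Sptlc2* (ENSMUSG00000021036) at chr12:87305058-87388355 on the minus strand and *Chka* (ENSMUSG00000024843) at chr19:3851773-3894369 on the plus strand. *Lpin1* (ENSMUSG00000020593) lies at chr12:16535669-16610966, *Dgat1* (ENSMUSG00000022555) at chr15:76502015-76511953, *Dgat2* (ENSMUSG00000030747) at chr7:99153658-99182719 and *Angptl4* (ENSMUSG00000002289) at chr17:33773750-33781830, all on the minus strand. *Pnpla2* (ENSMUSG00000025509) lies at chr7:141455198-141460743 on the plus strand. All are protein-coding. *Sptlc2* and *Chka* each overlap 2 genes on the opposite strand, and of these only *Gm26764*, a noncoding gene across *Sptlc2*, has a row, with at most 0.264 in any column.

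The 250 bases before the start of the 3 genes that were high together in injured PT are shown, read from RefSeq (GRCm38.p6) in the direction of the gene, with matches to 4 short motifs in capitals. The motifs were searched on both strands: the GC box GGGCGG bound by SP and KLF factors, the AP-1 motif TGANTCA, the hypoxia motif ACGTG and the nuclear receptor motif AGGTCA. The table matched 5 of the 8 genes.
Plin2, chr4:86670060-86670309, minus strand: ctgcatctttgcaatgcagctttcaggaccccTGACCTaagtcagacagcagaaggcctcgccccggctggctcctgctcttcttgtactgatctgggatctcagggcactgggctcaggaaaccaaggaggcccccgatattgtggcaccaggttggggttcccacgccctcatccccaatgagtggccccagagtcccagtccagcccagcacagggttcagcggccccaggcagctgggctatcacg
Sptlc2, chr12:87388356-87388605, minus strand: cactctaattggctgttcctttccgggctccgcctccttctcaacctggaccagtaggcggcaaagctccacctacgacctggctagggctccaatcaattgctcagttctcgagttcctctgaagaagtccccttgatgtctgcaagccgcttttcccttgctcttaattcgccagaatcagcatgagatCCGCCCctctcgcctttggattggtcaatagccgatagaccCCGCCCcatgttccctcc
Chka, chr19:3851523-3851772, plus strand: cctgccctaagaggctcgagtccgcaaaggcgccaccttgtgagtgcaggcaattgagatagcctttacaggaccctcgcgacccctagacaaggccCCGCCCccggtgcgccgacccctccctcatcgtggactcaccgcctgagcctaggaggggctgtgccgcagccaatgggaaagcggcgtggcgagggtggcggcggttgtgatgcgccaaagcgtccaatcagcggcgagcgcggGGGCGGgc

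The GC box was found 2 times each before *Sptlc2*, 59 and 18 bases from the start, and before *Chka*, 153 and 8 bases from it, and not in the window of *Plin2*. *Plin2* held a single AGGTCA match, 218 bases before the start, on the opposite strand. No AP-1 or hypoxia motif was found in any of these windows. Of 32851 promoter windows of the same length, 32.7% held a GC box, 14% an AGGTCA match, 16.6% the hypoxia motif and 6.75% the AP-1 motif. *Pnpla2*, which stayed under 0.5 in injured PT and so could not be called there, also held 2 GC boxes, and *Lpin1* held 1 AGGTCA match. Such matches describe the letters only.

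The injured tubule was compared with normal tubule of the same mouse. In InjuredPT-B of the AAI mice, the droplet coat gene *Plin2*, the ceramide synthesis gene *Sptlc2* and the choline kinase gene *Chka* were higher than the mean of the 5 normal PT clusters in both genotypes, while the triglyceride genes *Dgat2* and *Lpin1* were not called in both mice. *Plin2* was 3.97 in InjuredPT-B against 0.619 in normal PT of the control mouse, and 2.52 against 0.421 in the hKLF6OE mouse, which is 6.4-fold and 5.99-fold. *Sptlc2* was 6.86 against 2.91 and 5.29 against 2.27, or 2.36-fold and 2.33-fold. *Chka* was 4.95 against 2.02 and 5.18 against 2.2, or 2.45-fold and 2.35-fold. For all 3 genes the injured value of each AAI mouse lay above every one of its 5 normal PT clusters, whose highest values were 1.02 and 0.853 for *Plin2*, 3.83 and 3.28 for *Sptlc2*, and 3.02 and 3.11 for *Chka*.

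**Figure D1:**
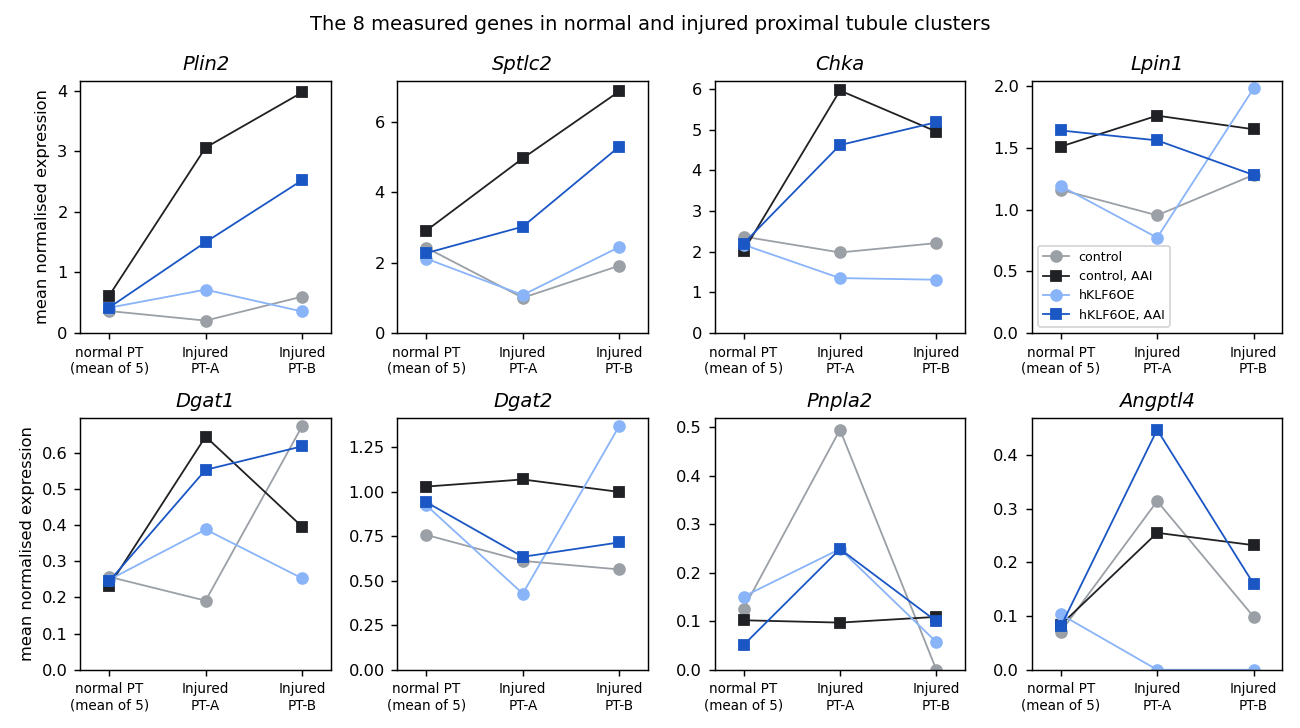
Mean normalised expression (vertical axis, linear) of the 8 measured genes in normal PT (mean of 5 clusters), InjuredPT-A and InjuredPT-B, with 1 line per mouse, grey and light blue without AAI, black and dark blue with AAI. *Plin2*, *Sptlc2* and *Chka* separate the AAI mice (squares) from the uninjured mice (circles) in both injured clusters, with *Plin2* at 3.97 and 2.52 in InjuredPT-B against 0.6 and 0.356, whereas the lines of *Lpin1*, *Dgat2* and *Pnpla2* cross.

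To read such differences on 1 scale, each was expressed as a difference of log2(value + 1), which understates changes of low genes. A gene was considered where the larger value was at least 0.5 in each mouse, and called where the difference was at least 0.2 in the same direction in both AAI mice. A gene with 1 side under 0.5 passes only through the other side, so it can be called in 1 direction only. By this rule 3 of the 5 genes that passed were called higher in InjuredPT-B, none lower and 2 not called, against 23.4% of 4148 genes called higher and 13.1% called lower. The differences were 1.62 and 1.31 for *Plin2*, 1.01 and 0.95 for *Sptlc2*, and 0.98 and 0.95 for *Chka*, beside a median over all genes of 0.11 and 0.10. For these 3 genes the rule of choice used InjuredPT-B, so nothing is read from their count. *Lpin1*, with 1.65 against 1.51 and 1.28 against 1.64, differed by 0.08 and -0.21, and *Dgat2*, with 1 against 1.03 and 0.716 against 0.942, by -0.02 and -0.18. *Lpin1* in the hKLF6OE mouse was thus past the threshold of 0.2, on the lower side, in that mouse alone. *Dgat1*, *Pnpla2* and *Angptl4* stayed under 0.5 in at least 1 of the mice and were not considered.

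In InjuredPT-A, the severely injured PT cluster that the rule of choice did not name, the same 3 genes were again above normal PT. *Chka* was 5.96 in the control and 4.62 in the hKLF6OE mouse with AAI, *Sptlc2* was 4.96 and 3.02, and *Plin2* was 3.06 and 1.5. The differences from normal PT were 1.20 and 0.81 for *Chka*, 1.33 and 0.81 for *Plin2*, and 0.61 and 0.30 for *Sptlc2*. *Dgat1*, of the last step of triglyceride synthesis, was called here as well, with 0.645 against 0.232 and 0.553 against 0.245, or 0.42 and 0.32 on the log2 scale. Its normal PT values were under 0.5 in both mice, so it passed through InjuredPT-A alone and could not be called lower. The same held for *Plin2* in the hKLF6OE mouse, with 0.421 in normal PT. In all 4 of the 6 genes that passed were called higher and none lower, against 43.3% of 5008 genes called higher and 27.0% called lower. The bulk of genes was shifted upward in this cluster, by a median of 0.19 and 0.15, and after centring on that shift *Dgat1* (0.22 and 0.17) and *Sptlc2* (0.41 and 0.15) were no longer called in both mice. *Sptlc2* in the hKLF6OE mouse with AAI also lay below its PT-S3-1 value of 3.28. *Lpin1*, with 1.76 against 1.51 and 1.56 against 1.64, differed by 0.14 and -0.04, and *Dgat2*, with 1.07 against 1.03 and 0.635 against 0.942, by 0.02 and -0.25. *Dgat2* was thus past the threshold of 0.2, on the lower side, in the hKLF6OE mouse alone.

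Within InjuredPT-B, injured mice were also set against uninjured mice. *Plin2* was 0.6 in the control and 3.97 in the control mouse with AAI, and 0.356 and 2.52 in the hKLF6OE mice. *Sptlc2* went from 1.91 to 6.86 and from 2.44 to 5.29, and *Chka* from 2.21 to 4.95 and from 1.31 to 5.18. Both AAI values lay above both uninjured values for these 3 genes, which were chosen for this rise, as they did for 37.9% of 4398 genes. Of the 6 genes that passed, 5 were called higher and 1 lower in the control mice, against 39.1% of 5019 genes called higher and 28.5% called lower. In the hKLF6OE mice 4 were called higher and 2 lower, against 41.2% of 5155 genes called higher and 32.9% called lower. With background shares of this size, and more than 50% of genes at 0 in the uninjured columns, a call here says little by itself. *Dgat1*, *Dgat2* and *Lpin1* were called in opposite directions in the genotypes: *Dgat2* went from 0.564 to 1 in control and from 1.37 to 0.716 in hKLF6OE mice. Over all 23 clusters and all genes, 10.1% of 94668 pairs of a gene and a cluster were called in opposite directions.

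In InjuredPT-A the same contrast gave differences of 1.75 and 0.54 for *Plin2*, 1.57 and 0.95 for *Sptlc2*, 1.22 and 1.26 for *Chka*, and 0.50 and 0.53 for *Lpin1*, the control mice given before the hKLF6OE mice. *Plin2* there was 0.205 and 0.716 without AAI, and *Sptlc2* was 1 and 1.08. *Lpin1*, at 0.953 and 0.772 without AAI and 1.76 and 1.56 with it, was called higher in both genotypes. In all, 4 of the 6 genes that passed were called higher in both genotypes and none lower, against 37.2% of 4974 genes called higher. The share of all genes called lower was not taken for this contrast, so nothing is read from the lack of lower calls. *Plin2*, *Sptlc2* and *Chka*, among those called, were chosen for a rise with AAI in InjuredPT-B. The uninjured columns of InjuredPT-A are among the coarsest.

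Normal PT clusters showed another order of genes. With AAI, *Lpin1* was higher in both genotypes, from 1.16 to 1.51 in control and from 1.19 to 1.64 in hKLF6OE mice, or 0.22 and 0.27 on the log2 scale. *Plin2* went from 0.363 to 0.619 in control (0.25) but from 0.418 to 0.421 in hKLF6OE mice (0.00), and *Dgat2* from 0.758 to 1.03 (0.21) but from 0.924 to 0.942 (0.01). *Sptlc2* differed by 0.19 and 0.07, and *Chka* by -0.16 and 0.02. In the control mice 3 of the 5 genes that passed were called higher and none lower, against 11.7% of 4052 genes called higher, while 456 of the 4052 were called lower. In the hKLF6OE mice only *Lpin1* of 4 genes was called, and none was lower, against 19.5% of 4133 genes called higher and 15.4% lower. Whether the genotypes differed in this effect was not tested. The calls were not the same in the 2 early PT clusters (PT-S1-S2) alone. There, in the control mice, *Plin2* (0.19), *Dgat2* (0.17) and *Lpin1* (0.10) were not called, *Sptlc2* was called higher (0.20) and *Chka* lower (-0.22). In the hKLF6OE mice *Dgat2* was called lower there (-0.25), and *Lpin1* was still called higher (0.25).

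Within normal PT, *Plin2* and *Dgat2* were highest in the cluster PT-S3-3 of both AAI mice. *Plin2* there went from 0.468 to 1.02 in control and from 0.433 to 0.853 in hKLF6OE mice, while in the 4 other normal PT clusters no value with AAI was over 0.584. *Dgat2* in PT-S3-3 went from 0.708 to 1.17 and from 0.719 to 1.2, and *Lpin1* from 1.25 to 1.66 and from 1.47 to 1.99. *Lpin1* was also higher in PT-S3-1, from 1.39 to 2.27 and from 1.57 to 2.21, and *Sptlc2* from 2.72 to 3.83 and from 2.33 to 3.28. Of the 21 pairs of a gene and a normal PT cluster that passed in both genotypes, 5 were called higher in both, all in PT-S3-1 or PT-S3-3, and none lower. Over all genes 8.92% of 19205 such pairs were called higher and 7.44% lower.

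The hKLF6OE mice were also set against the control mice. Without AAI none of the 4 genes that passed in normal PT was called, with differences of 0.13 for *Dgat2*, 0.03 for *Lpin1*, -0.09 for *Chka* and -0.13 for *Sptlc2*, while 7.84% of 4041 genes were called higher and 9.33% lower. With so few genes a count of 0 is near that background. Single clusters did hold calls: of the 81 pairs of a gene and a cluster that passed, 21 were called higher and 22 lower in the hKLF6OE mouse without AAI, against 22.4% and 27.4% of 108370 such pairs over all genes. *Dgat2* was higher in PT-S1-S2-1 (1.26 against 0.937) and PT-S1-S2-2 (1.16 against 0.846) and in the coarse InjuredPT-B columns (1.37 against 0.564), and *Plin2* in those of InjuredPT-A (0.716 against 0.205). *Sptlc2* in CD_PC (2.54 against 3.19) and *Chka* in MC (0.826 against 1.19) were lower. With AAI 1 of 5 genes was called, *Sptlc2*, which was lower in the hKLF6OE mouse (2.27 against 2.91, or -0.26), where 6.32% of 3942 genes were called higher and 7.74% lower. *Plin2* was 0.421 against 0.619 in the same contrast, a difference of -0.19. The difference for *Sptlc2* was -0.16, and not called, in the 3 PT-S3 clusters alone. In the injured clusters with AAI the hKLF6OE mouse had the lower value of *Plin2* and *Sptlc2* in each case, while *Chka* was lower in InjuredPT-A (4.62 against 5.96) and higher in InjuredPT-B (5.18 against 4.95).

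**Figure D2:**
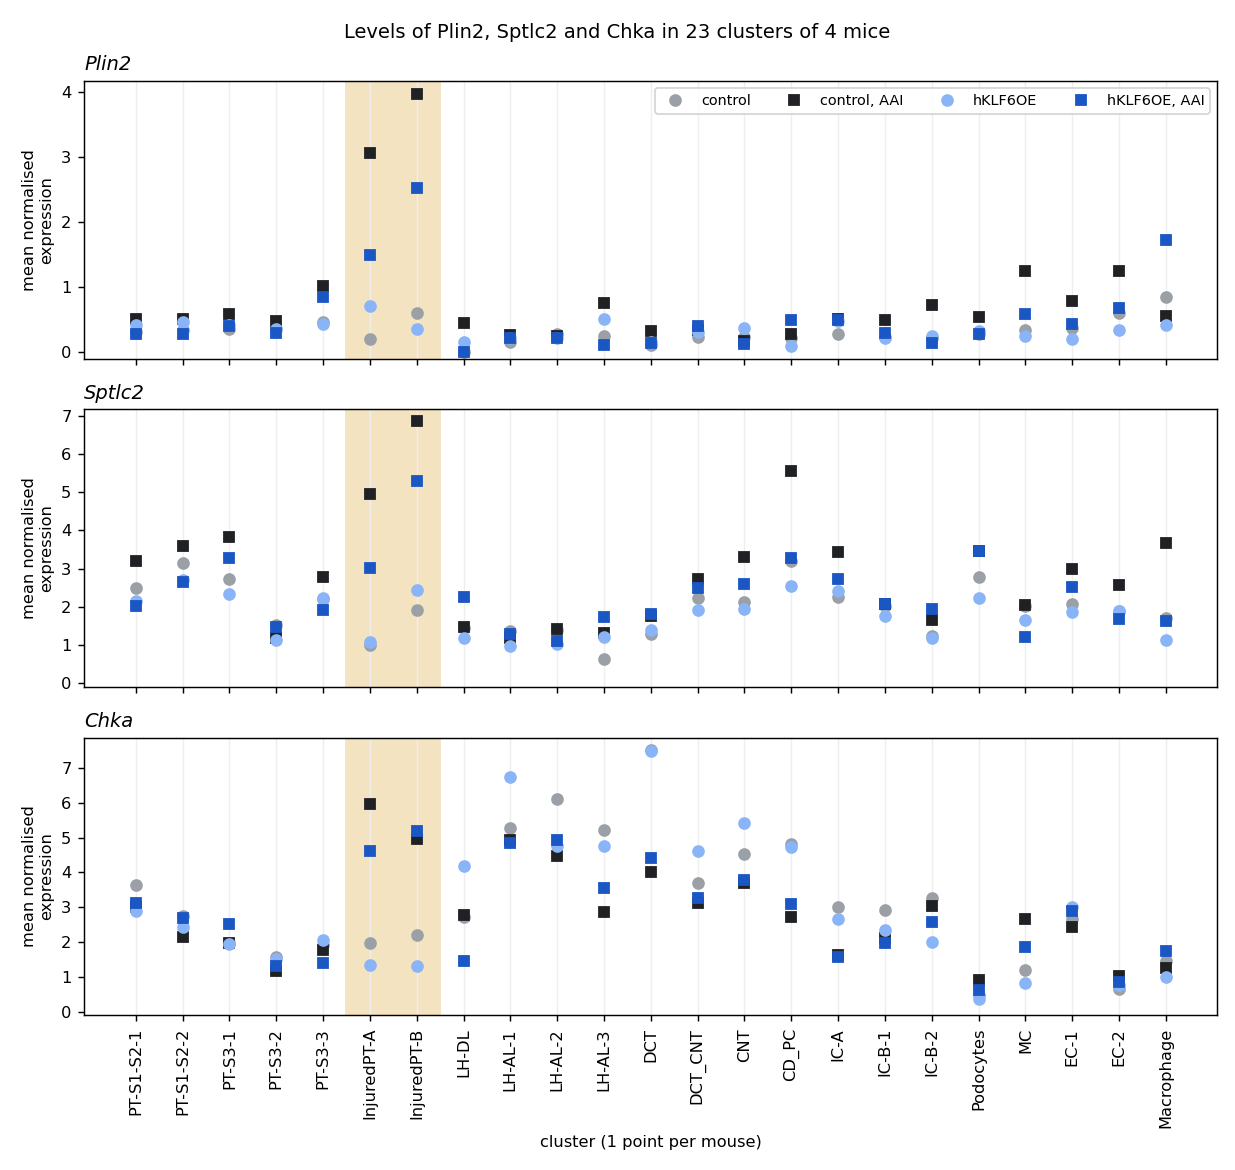
Mean normalised expression (vertical axes, linear, 1 per gene) of *Plin2*, *Sptlc2* and *Chka* in the 23 clusters, with 1 point per mouse, circles without AAI and squares with AAI, and the injured PT clusters shaded. *Plin2* stands out in the shaded clusters of the AAI mice, *Sptlc2* is broad with a second peak of 5.56 in CD_PC, and *Chka* is highest in DCT without AAI, near 7.5, where both AAI mice are lower.

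Along the nephron the 3 genes had different homes. In the uninjured mice *Chka* was highest in the distal convoluted tubule (DCT), with 7.51 in the control and 7.48 in the hKLF6OE mouse, followed by ascending limb and connecting tubule (CNT) clusters, while normal PT averaged 2.37 and 2.17. Its 6 highest clusters by the mean of the 4 mice were DCT (5.85), LH-AL-1 (5.45), LH-AL-2 (5.08), CNT (4.35), LH-AL-3 (4.1) and the collecting duct principal cells CD_PC (3.84), and the ranges over the mice overlapped between each of these neighbours. *Sptlc2* was above 0.5 in all 92 columns, and its highest means were in InjuredPT-B (4.12), CD_PC (3.64), PT-S3-1 (3.04), PT-S1-S2-2 (3.02) and podocytes (2.98). *Plin2* reached 0.5 in 26 of the 92 columns, and its highest means after the injured clusters (1.86 and 1.37) were in Macrophage (0.887), EC-2 (0.717) and PT-S3-3 (0.693), with overlapping ranges.

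*Chka*, which rose with AAI in the injured PT clusters, fell in several distal ones. It fell in 5 of the 16 clusters outside the PT in both genotypes, where over all genes 9.36% of pairs of a gene and such a cluster fell and 11.5% rose. In DCT it went from 7.51 to 4.01 in control and from 7.48 to 4.41 in hKLF6OE mice (-0.76 and -0.65). In CD_PC it went from 4.81 to 2.73 and from 4.73 to 3.1 (-0.64 and -0.48), and in type A intercalated cells (IC-A) from 3.02 to 1.62 and from 2.67 to 1.56 (-0.62 and -0.52). CNT fell by smaller amounts (-0.23 and -0.43), and LH-AL-3, a coarse cluster, by -0.70 and -0.34. Normal PT clusters did not share the rise of the injured ones: *Chka* was called lower in PT-S1-S2-1 (-0.20), PT-S1-S2-2 (-0.25) and PT-S3-2 (-0.24) of the control mice and in PT-S3-3 of the hKLF6OE mice (-0.35), and higher in PT-S3-1 of the hKLF6OE mice alone (0.26). *Chka* rose in 2 clusters outside the PT, in MC from 1.19 to 2.65 and from 0.826 to 1.86, and in podocytes from 0.494 to 0.923 and from 0.369 to 0.628. In consequence the order of clusters changed: InjuredPT-A, which was 16th and 18th of 23 clusters in the uninjured mice, was the highest in the control mouse with AAI, and InjuredPT-B was the highest in the hKLF6OE mouse with AAI.

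*Sptlc2* was called higher with AAI in both genotypes in 9 of the 16 clusters outside the PT and lower in none. The 9 were DCT, EC-1, CNT, CD_PC, DCT_CNT, podocytes, IC-B-2, Macrophage and LH-AL-3. In CD_PC it went from 3.19 to 5.56 and from 2.54 to 3.27, in CNT from 2.13 to 3.31 and from 1.95 to 2.6, and in podocytes from 2.79 to 3.45 and from 2.22 to 3.45. These steps of 0.21 to 0.79 were smaller than the 0.87 to 1.57 of the injured PT clusters. *Plin2* was called higher in both genotypes in EC-2 (0.601 to 1.25 and 0.345 to 0.677) and MC (0.345 to 1.25 and 0.254 to 0.59), of the 4 clusters in which it passed. *Lpin1* was called higher in EC-1, IC-B-1 and IC-B-2 of 9. In all, 16 of the 49 pairs of a gene and a cluster outside the PT were called higher in both genotypes and 5 lower, against 11.5% and 9.36% of 66091 such pairs over all genes. All 5 lower pairs were *Chka*, and 9 of the 16 higher pairs were *Sptlc2*.

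**Figure D3:**
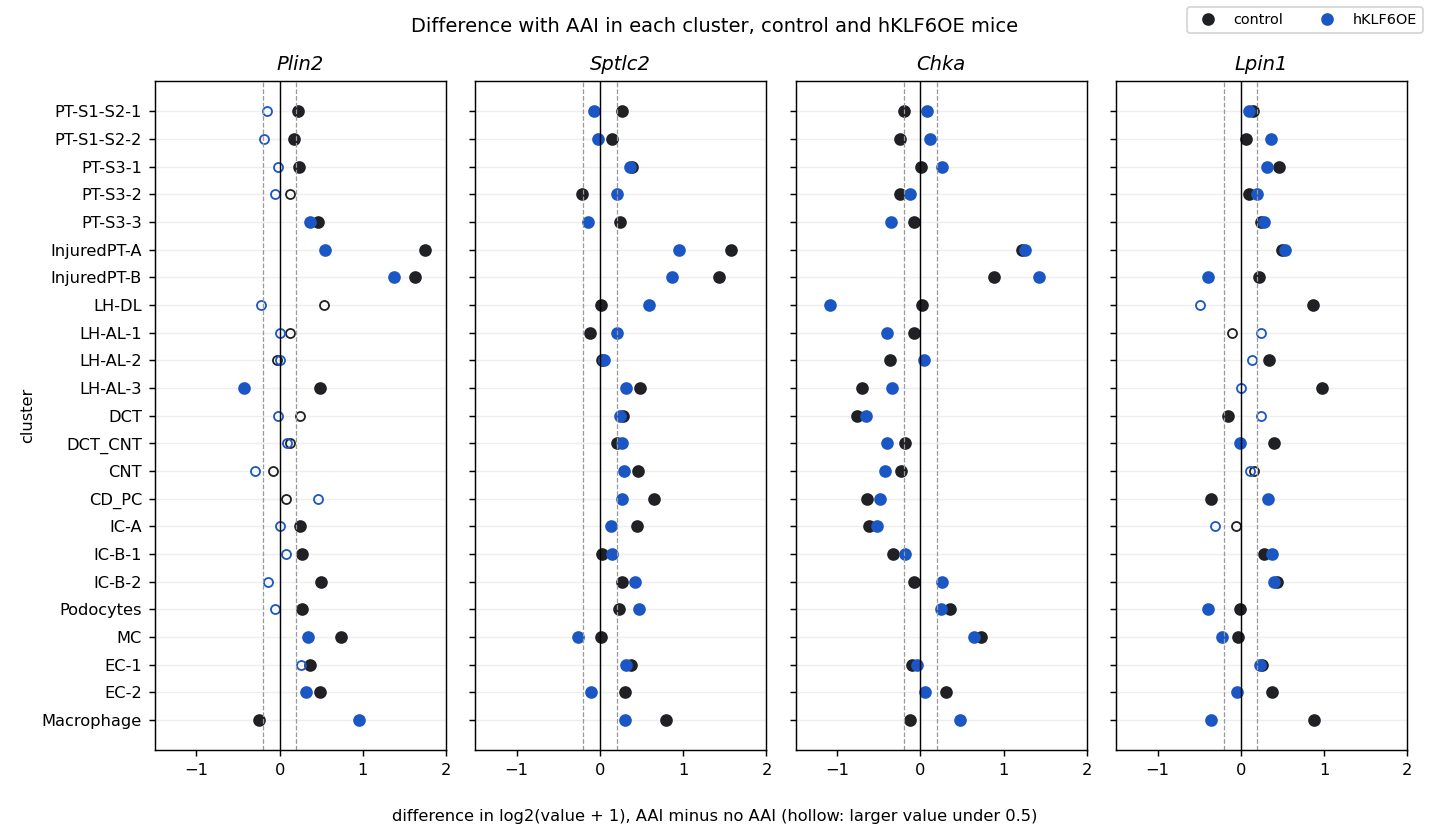
Difference in log2(value + 1) between the AAI and the uninjured mouse (horizontal axis) in each cluster (vertical axis) for *Plin2*, *Sptlc2*, *Chka* and *Lpin1*, black for control and blue for hKLF6OE mice. Dashed lines mark 0.2 in each direction, and hollow points have a larger value under 0.5. The *Chka* points lie right of 0 in both injured PT clusters (0.89 to 1.42) and left of it in DCT, CD_PC and IC-A (-0.48 to -0.76).

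*Lpin1* and *Dgat2* were on average higher in the normal PT clusters than outside the PT. *Lpin1* averaged 1.16 to 1.64 over normal PT of the 4 mice and 0.407 to 0.69 over the 16 clusters outside it, and *Dgat2* averaged 0.758 to 1.03 and 0.244 to 0.394. *Lpin1* was highest by its mean in PT-S3-1 (1.86) and *Dgat2* in PT-S1-S2-1 (1.06), each overlapping its next neighbour. Single clusters outside the PT reached PT levels: the *Lpin1* means of EC-1 (0.969) and MC (0.966) were above that of PT-S1-S2-1 (0.91). For *Dgat2*, EC-1 (0.669) was close to PT-S3-2 (0.699). The remaining genes were low. *Dgat1* had a median of 0.256 over the 92 columns and was highest in LH-AL-3, where its values were 1.09, 1.37, 0.709 and 0.338 in control, control with AAI, hKLF6OE and hKLF6OE with AAI. The lipase gene *Pnpla2* had a median of 0.114, reached 0.5 in 2 columns and was at 0 in 12. In normal PT it was 0.126 and 0.102 in the control mice without and with AAI, and 0.151 and 0.051 in the hKLF6OE mice. *Angptl4* never reached 0.5. Its highest value, 0.447, was in InjuredPT-A of the hKLF6OE mouse with AAI, and with AAI both injured clusters (0.255 and 0.232 in control, 0.447 and 0.16 in hKLF6OE) exceeded normal PT (0.0834 and 0.0806). Without AAI, InjuredPT-A had 0.314 in the control mouse, above its value with AAI, and 0 in the hKLF6OE mouse. Differences this small could not be called.

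The genes whose pattern over the 92 columns was most like each member were found by Pearson's r of log2(value + 1) among 11444 genes, as a description, since columns of a mouse share a library. *Plin2* was most like *Abcb1b* (r = 0.78), a multidrug efflux transporter gene that also peaked in InjuredPT-B of the control mouse with AAI, and then *Mroh3* and *Rap2b* (both 0.73). *Chka* was most like *Sema4b*, *Paqr5* (both 0.73) and *Ccdc141* (0.72), which peaked in LH-AL-1, LH-AL-1 and DCT. *Sptlc2* had weaker matches, *L3mbtl3* (0.61), *Tnks2* (0.56) and *5730559C18Rik* (0.55), and *Dgat1* had *Nup210l* (0.60), *Suz12* (0.58) and *Ppm1j* (0.57). *Dgat2* was most like *Lrp4* (0.83), *Kcnj15* and *Slc47a1* (both 0.82), and *Lpin1* was most like *Map3k13*, *Hacd2* and *Lactb2* (all 0.79). Among the members themselves *Dgat2* and *Lpin1* had r = 0.72, *Plin2* and *Sptlc2* 0.47, and *Chka* with *Plin2* and *Sptlc2* -0.04 and -0.08. These r values include the injured PT columns, so patterns in the other clusters alone were not measured. Over all 92 columns *Chka* did not follow *Plin2* or *Sptlc2*, with which it was chosen for a rise in InjuredPT-B.

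Around the set, 136 genes in 9 lists of lipid handling were followed, of which 132 had a row. In InjuredPT-B against normal PT of both AAI mice, 46 passed, 12 were called higher and 7 lower, beside the 23.4% and 13.1% of all genes given above. The sphingolipid synthesis list, of which *Sptlc2* is a neighbour, had 4 of 6 genes higher and none lower, and its median differences were 0.41 and 0.29. *Sgms1*, which encodes a sphingomyelin synthase, had the largest rise, with 7.79 against 4.22 and 7.17 against 4.37 (0.75 and 0.61), and *Sgms2*, *Degs1* and *Cers5* were the others. Of the 2 not called, *Cers2* differed by 0.37 and 0.00. *Cers6* differed by -0.74 in the control mouse (3.17 against 5.97) and by -0.04 in the hKLF6OE mouse. The sphingolipid breakdown list had 1 of 2, the ceramidase gene *Acer3* (1.27 against 0.953 and 1.99 against 0.984). After centring, 2 sphingolipid synthesis genes and no breakdown gene were called.

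The lists of the triglyceride side were also short, and no difference between them and the sphingolipid lists was tested. The lipid droplet protein list had none of 3 genes called (*Ldah*, *Hsd17b11* and *Rab18*), with medians of -0.07 and 0.03, and the triglyceride synthesis list had 1 of 6, *Acsl4*, an acyl-CoA synthetase gene (1.29 against 0.792 and 1.52 against 0.827). Of the lipolysis list, *Faf2* was higher (1.52 against 0.858 and 1.37 against 0.889), and the carboxylesterase genes *Ces1d* (1.7 against 3.93 and 1.11 against 3.01) and *Ces1f* were lower, of 6. Of phospholipid synthesis, 2 genes were higher, led by *Cds2* (0.951 against 0.4 and 0.741 against 0.421), and 2 were lower, led by *Chpt1*, the cholinephosphotransferase of the last step of the pathway that *Chka* opens (15.7 against 25.7 and 11.7 against 25.2), of 6. Part of the *Chpt1* gap lay in the reference, since normal PT without AAI had 18.4 and 19.5. Within InjuredPT-B *Chpt1* went from 16.6 to 15.7 in control and from 17.2 to 11.7 in hKLF6OE mice. *Cept1*, whose enzyme can also carry out that last step, was not called (0.869 against 0.834 and 1.05 against 0.875). Of fatty acid synthesis and SREBP, *Elovl7* was higher (0.42 in both mice) and *Acaca*, which encodes acetyl-CoA carboxylase, lower (-0.20 and -0.38), of 7. Of lipid uptake, *Mttp* was higher (0.30 and 0.29) and the fatty acid transporter gene *Slc27a2* lower, of 5, with 9.03 against 17.8 and 7.28 against 18. Of nuclear receptors and partners, *Hif1a* was higher (0.28 and 0.40) and *Ppara*, the receptor that drives fatty acid oxidation, lower (6.38 against 10.7 and 3.68 against 8.02), of 5.

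**Figure D4:**
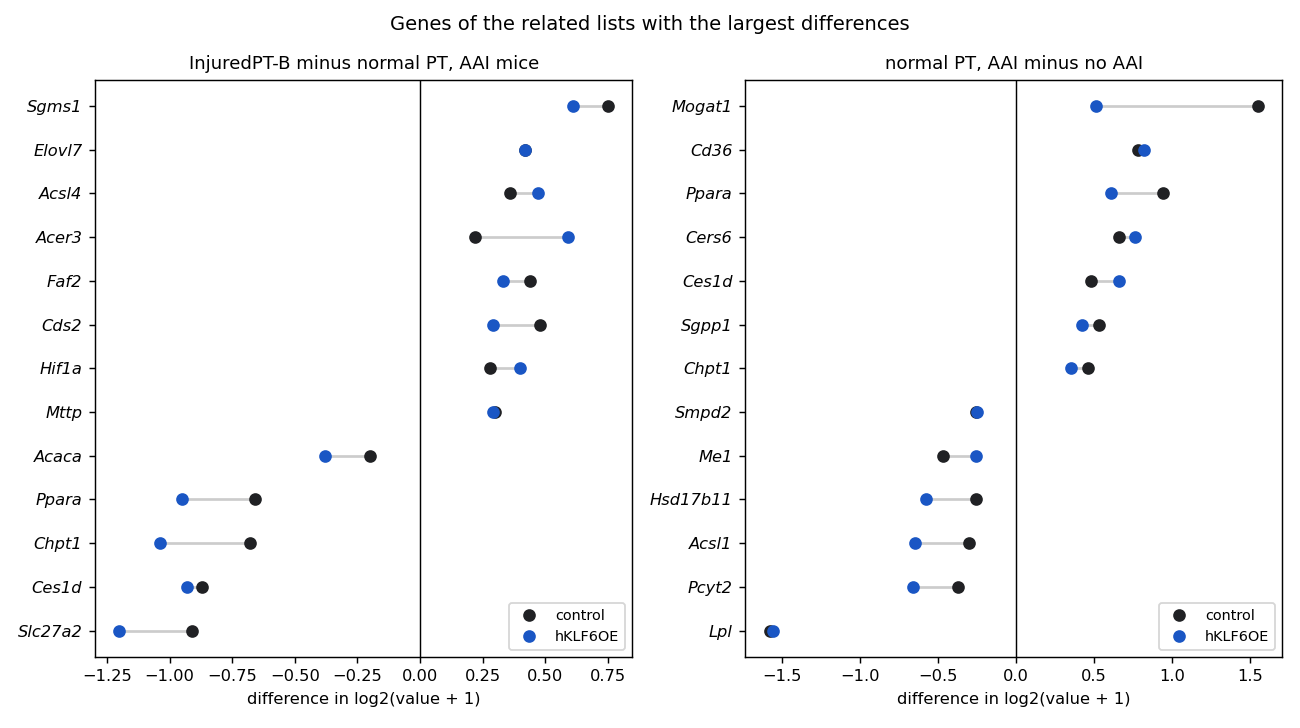
Differences in log2(value + 1) (horizontal axes) for the genes with the largest called rise or fall in each related list, with 1 point per genotype, black for control and blue for hKLF6OE. The left panel compares InjuredPT-B with normal PT of the AAI mice, from *Sgms1* (0.75 and 0.61) to *Slc27a2* (-0.91 and -1.20), and the right panel compares normal PT with and without AAI, from *Mogat1* (1.55 and 0.51) to *Lpl* (-1.58 and -1.56).

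In normal PT the lists moved otherwise with AAI. Of 43 genes that passed in both genotypes, 8 were called higher and 8 lower, against 7.66% of 3892 genes called higher and 5.83% called lower in both. *Lpl*, which encodes lipoprotein lipase, the target of *Angptl4*, fell most, from 4.71 to 0.907 in control and from 3.68 to 0.587 in hKLF6OE mice. The fatty acid uptake gene *Cd36* rose from 1.51 to 3.31 and from 1.58 to 3.56. *Mogat1*, a monoacylglycerol acyltransferase gene, rose from 0.511 to 3.42 and from 1.47 to 2.52, *Acsl4* rose as well, and *Acsl1* fell from 1.77 to 1.25 and from 2.11 to 0.988, of 4 triglyceride synthesis genes. *Ppara* rose from 5.1 to 10.7 and from 4.92 to 8.02, of 3 in its list. The AAI value of normal PT, 10.7 and 8.02, is also what InjuredPT-B was set against above. Beside normal PT of the uninjured mice, *Ppara* in InjuredPT-B with AAI was 6.38 against 5.1 in control and 3.68 against 4.92 in hKLF6OE mice, and within InjuredPT-B it went from 3.46 to 6.38 and from 4.16 to 3.68.

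The smaller lists gave 1 or 2 genes each in normal PT. *Ces1d* rose from 2.53 to 3.93 and from 1.54 to 3.01, of 6 lipolysis genes, and *Cers6*, a ceramide synthase gene, from 3.4 to 5.97 and from 3.12 to 5.99, of 7 sphingolipid synthesis genes. *Sgpp1* rose (0.705 to 1.47 and 0.651 to 1.22) and *Smpd2* fell (0.623 to 0.351 and 0.541 to 0.3), of 3 sphingolipid breakdown genes. *Chpt1* rose from 18.4 to 25.7 and from 19.5 to 25.2 and *Pcyt2* fell from 4.65 to 3.39 and from 5.12 to 2.89, of 5 phospholipid genes. *Me1* fell from 3.49 to 2.24 and from 2.84 to 2.21 beside *Srebf2*, of 6 genes of fatty acid synthesis, and *Hsd17b11* fell from 1.51 to 1.1 and from 1.41 to 0.61, of 3 droplet protein genes.

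Markers of other cells were read beside these values. Of 5 adipocyte markers 4 have a row, and *Adipoq*, *Plin1*, *Cidec* and *Retn* were all at 0 in InjuredPT-B of all 4 mice, while in InjuredPT-A they summed to 0.125 and 0.128 with AAI. The 4 macrophage markers, of cells known to hold droplets, summed to 0.137 and 0.0802 in InjuredPT-B of the AAI mice, below the 0.158 and 0.0965 of normal PT, and in InjuredPT-A to 0.251 and 0.209. The 3 endothelial markers summed to 0.385 and 0.403 in InjuredPT-B against 0.322 and 0.282 in normal PT, and to 0.611 and 0.884 in InjuredPT-A. Since *Chka* was high in distal clusters, their markers matter too: *Slc12a1* in InjuredPT-B of the AAI mice was 0.846% and 1.38% of its level in LH-AL-1, and in InjuredPT-A 1.27% and 2.26%. *Slc12a3* was 0.717% and 0.708% of its DCT level in InjuredPT-B and 1.33% and 1.92% in InjuredPT-A. *Umod*, the other ascending limb marker, made a larger share of its level in LH-AL-2, where it was highest: 12.6% and 10.1% in InjuredPT-B and 19.7% and 24.4% in InjuredPT-A. Both ascending limb markers together summed to 10.3 and 13.8 in InjuredPT-A and 6.64 and 6.58 in InjuredPT-B of the AAI mice, against 5.69 and 5.21 in normal PT. In the uninjured mice they summed to 23.5 and 33.4 in InjuredPT-A. The endothelial markers of these mice summed to 2.56 and 2.29 in InjuredPT-A and 0.889 and 0.799 in InjuredPT-B. Normal PT had 0.34 and 0.384. Their macrophage markers summed to 0 and 1.8 in InjuredPT-A and 0.402 and 0.81 in InjuredPT-B, against 0.212 and 0.33 in normal PT. These columns are the baseline of the AAI contrasts within the injured clusters, and whether their cell make-up differed was not tested. The part of transcripts from other cells in the levels of the set was not tested.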

How the data were processed

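The authors deposited 1 table of signal values, the mean normalised expression of each gene in each of 23 clusters of nuclei from each of 4 mice, made according to the study's methods with Cell Ranger on an mm10 pre-mRNA reference and Seurat. The function behind the means, the nuclei per column and any doublet removal are not given in the sources used here. The 4 kidneys were processed together as 1 batch. Of 19632 rows, 23 with names turned into dates were left out, leaving 19609. Every column sums to 10000. Clusters are numbered in the table, and their names were taken in the order of the study's marker sheets and checked against marker genes.

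Differences are of log2(value + 1) (pandas 2.3.3, numpy 2.4.6, Python 3.11.15), for genes whose larger value was at least 0.5, called at 0.2 or more. Injured clusters were set against the unweighted mean of the 5 normal PT clusters of the same mouse, and called where both AAI mice agreed. With 1 mouse per group there is no test and no p-value. The calling step was tested only on simulated data with large changes in well-expressed genes and little noise. That test does not show how often calls of small differences in low genes are wrong. The members and lists were chosen with earlier results of these data known. Named are the members, the largest called rise and fall of each list in InjuredPT-B and in normal PT, the 3 genes most alike for members reaching 1, *Klf6* and the cell markers, and genes in small counts, which were named after their values were seen. Alternatives were another pseudocount (0.1), filter, threshold (0.5 and 1), centring, reference and set of clusters. Promoters and gene positions come from RefSeq and GENCODE on GRCm38. Promoters of *Dgat1*, *Dgat2* and *Angptl4* were not analysed here. A gene of the lists that is in their counts is not reported here by itself.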

Additional observations from a re-analysis of the deposited data

Results flagged for a closer look

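In 9 of the 82 pairs of a gene and a cluster that passed in both genotypes, the AAI effect was called in opposite directions in control and hKLF6OE mice, in each case without a test of the difference. Over all genes this held for 10.1% of 94668 such pairs, so 9 is near the background. The value given is the effect in hKLF6OE minus that in control mice, on the log2(value + 1) scale, and 7 of the 9 pairs lie in clusters with many genes at 0.

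In InjuredPT-B, *Dgat1* gave 0.63 (-0.26 in control and 0.37 in hKLF6OE mice), *Dgat2* gave -0.82 (0.35 and -0.46) and *Lpin1* gave -0.61 (0.22 and -0.39). In Macrophage, *Plin2* gave 1.19 (from 0.845 to 0.554 and from 0.417 to 1.73), *Dgat1* gave 1.24 (-0.26 and 0.98) and *Lpin1* gave -1.24 (0.88 and -0.36). In LH-AL-3, *Plin2* gave -0.92 (0.49 and -0.43). The remaining 2 were *Sptlc2* in PT-S3-2, with 0.42 (from 1.53 to 1.18 and from 1.13 to 1.46), and *Lpin1* in CD_PC, with 0.68 (from 0.675 to 0.309 and from 0.336 to 0.676).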

How the results depend on the processing

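No paired analysis was made, since each group is 1 mouse, and no value comes from a test. A fit of AAI with genotype as a block, which would leave 1 residual degree of freedom, was not run. Counts of members called stayed within 1.5 times the main count under 35 of 64 alternatives. At a threshold of 1, InjuredPT-B against normal PT kept 1 member of 3 and InjuredPT-A 0 of 4, normal PT with AAI had 0 in each genotype, the genotype contrast with AAI 0, and AAI within InjuredPT-B 2 in each genotype. At 0.5, InjuredPT-A kept 2, both AAI contrasts of normal PT and the genotype contrast with AAI had 0, and AAI within InjuredPT-B had 3 in each genotype. With a larger value of at least 2, InjuredPT-A had 2, normal PT with AAI 0 in each genotype and AAI within InjuredPT-B 3 in each. With a pseudocount of 0.1, normal PT with AAI had 5 in control mice, and the genotype contrast 1 without and 2 with AAI. Centring left 2 in InjuredPT-A and 2 in the genotype contrast with AAI. The hKLF6OE mouse alone gave 5 in InjuredPT-B. PT-S3 clusters alone gave 2 for normal PT with AAI in hKLF6OE mice and 0 for the genotype contrast with AAI. PT-S1-S2 clusters alone gave 2, 1 and 2 for normal PT with AAI in hKLF6OE mice and for the genotype contrast without and with AAI. Of 256 recalculations of member differences, 20 crossed the calling rule. No called difference changed sign, but a change of sign was counted for called differences only. Another pseudocount cannot change a sign. Uncalled differences did change sign, as *Lpin1* in InjuredPT-B against normal PT of the control mouse, from 0.08 to -0.03 after centring. Of 81 list counts under alternatives, 34 moved by more than 1.5 times. The unknown number of nuclei limits every value, most in the uninjured columns of the injured clusters.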

Other observations

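The related lists were also read in InjuredPT-A, where 50 of the 132 genes passed, 19 were called higher and 14 lower than normal PT in both AAI mice, against 43.3% and 27.0% of all genes. The genes named here were chosen after their values were seen. *Degs1*, which encodes the desaturase that makes ceramide, was 6.92 against 0.667 in the control and 3 against 0.551 in the hKLF6OE mouse with AAI, while *Cers6* was 1.28 against 5.97 and 1.48 against 5.99. *Etnk1*, an ethanolamine kinase gene, was 3.5 against 0.968 and 3.13 against 0.9. *Bscl2*, which encodes the droplet protein seipin, was 0.694 against 0.165 and 0.62 against 0.144. *Ppara* was 1.43 against 10.7 and 1.3 against 8.02, and *Slc27a2* was 4.84 against 17.8 and 8.52 against 18. Part of the *Ppara* and *Cers6* gaps lay in the reference. Normal PT without AAI had 5.1 and 4.92 for *Ppara*, and 3.4 and 3.12 for *Cers6*. Within InjuredPT-A *Ppara* went from 2.88 to 1.43 in control and from 1.75 to 1.3 in hKLF6OE mice. *Cers6* there went from 2.66 to 1.28 in control but from 1.24 to 1.48 in hKLF6OE mice. *Sgms1*, the sphingomyelin synthase gene that was higher in InjuredPT-B, was lower here, with 3 against 4.22 and 2.04 against 4.37.

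*Mogat1* differed between the uninjured mice in normal PT, at 0.511 in the control and 1.47 in the hKLF6OE mouse, which is larger than any genotype difference of the 8 members there.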
